A study of Mus musculus with 4 samples.

Results

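The circadian clock genes described here are 10 transcription factor and repressor genes, Per1, Per2, Per3, Cry1, Cry2, Clock, Nr1d1, Nr1d2, Dbp and Nfil3, chosen by symbol from a table of 15713 genes in which all 10 were found and tested. Messenger RNA of the hippocampus was measured in 4 RNA sequencing libraries of C57BL/6 mice, an inbred laboratory strain, at 11 to 12 weeks of age. The 2 control libraries came from mice labelled untreated. The 2 ATO libraries came from mice labelled as exposed to 5000 ppb ATO during development; ATO is not spelled out in the labels, and the series title speaks of arsenic and of offspring. For sex, litter, route of exposure and the time of day of tissue collection, the sources used here give nothing, nor whether a library is 1 animal or a pool. The p-values thus reflect only how far these libraries spread, which may be technical.

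The mammalian clock is a loop of transcription in which CLOCK, paired with BMAL1 (the product of Arntl), switches on the Per and Cry genes at E-box motifs, and the PER and CRY proteins then repress CLOCK and BMAL1. A second loop runs through the nuclear receptors REV-ERB alpha and beta (Nr1d1 and Nr1d2), which repress Arntl and Nfil3. DBP activates and NFIL3 represses genes with a D-box motif. Transcripts of Dbp and Arntl peak at opposite times of day in most tissues, so a single collection per animal reads 1 phase of each. In the hippocampus the clock is known for its daily modulation of synaptic plasticity and memory, and Per1 and Per2 are also known to be induced by glucocorticoid hormones.

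RefSeq promoter windows, each running from 250 bases before to 50 bases after an annotated start (GRCm38.p6), were found for 9 of the 10 genes, 12 windows in all; Per2 had no entry. Of these genes 8 held at least 1 of the motifs searched. Motifs were read on both strands: the E-box CACGTG and its variant CACGTT, the D-box TTATGTAA and its variant TTACGTAA, the REV-ERB and ROR core AGGTCA, the cyclic AMP response element TGACGTCA, and a glucocorticoid receptor palindrome of AGAACA and TGTTCT with 3 bases between them. The 4 windows printed are those of Per1, Cry1, Per3 and Nfil3, which show the E-box, the D-box and the REV-ERB core at genes of different roles. Capitals mark the matches, and each sequence reads 5′ to 3′ on the strand of its gene.

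Per1 (chr11:69098699-69098998, plus strand): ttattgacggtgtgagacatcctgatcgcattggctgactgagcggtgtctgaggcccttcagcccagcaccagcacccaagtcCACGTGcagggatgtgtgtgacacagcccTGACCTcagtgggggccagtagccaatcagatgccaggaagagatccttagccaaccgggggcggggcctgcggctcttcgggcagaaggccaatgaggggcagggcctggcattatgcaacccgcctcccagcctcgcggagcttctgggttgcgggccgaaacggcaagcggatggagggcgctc

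Cry1 (chr10:85185005-85185304, minus strand): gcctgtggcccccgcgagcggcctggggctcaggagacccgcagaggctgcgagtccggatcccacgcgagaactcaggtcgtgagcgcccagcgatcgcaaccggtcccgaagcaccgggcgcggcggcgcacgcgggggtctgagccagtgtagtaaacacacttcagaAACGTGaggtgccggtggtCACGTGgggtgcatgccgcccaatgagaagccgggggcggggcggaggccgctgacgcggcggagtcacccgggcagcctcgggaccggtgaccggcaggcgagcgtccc

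Per3 (chr4:151044616-151044915, minus strand): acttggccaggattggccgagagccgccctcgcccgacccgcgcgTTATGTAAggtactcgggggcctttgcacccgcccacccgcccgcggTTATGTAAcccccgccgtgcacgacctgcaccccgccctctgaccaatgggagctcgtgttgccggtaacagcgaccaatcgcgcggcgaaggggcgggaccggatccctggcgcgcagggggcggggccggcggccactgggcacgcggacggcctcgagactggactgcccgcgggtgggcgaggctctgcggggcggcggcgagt

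Nfil3 (chr13:52980990-52981289, minus strand): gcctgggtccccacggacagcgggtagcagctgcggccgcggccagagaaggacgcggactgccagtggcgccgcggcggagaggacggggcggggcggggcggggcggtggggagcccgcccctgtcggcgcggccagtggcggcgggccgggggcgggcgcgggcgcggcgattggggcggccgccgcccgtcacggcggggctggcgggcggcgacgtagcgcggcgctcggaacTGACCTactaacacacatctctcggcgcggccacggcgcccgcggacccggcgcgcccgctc

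The Per1 window printed held an E-box whose last base lies 161 bases before the start, followed by a reverse AGGTCA at 132 bases. Another annotated start of Per1 has a window (chr11:69099902-69100201) that is not printed and had no match. Cry1 held an E-box at 55 bases and a reverse CACGTT at 74 bases before its start. Per3 was the only one of the 9 genes with a D-box, and it had 2, at 198 and 151 bases. Nfil3 held a reverse AGGTCA that ends 7 bases before its start. Among all 32851 windows, 7.15% held CACGTG, 4.68% CACGTT, 0.938% TTATGTAA, 0.119% TTACGTAA, 16.3% AGGTCA, 1.79% TGACGTCA and 0.00913% the glucocorticoid receptor palindrome. The last 2 and TTACGTAA were in 0 of the 12 windows, which says only that these letters are not there. A match is a description of the letters and not a measured binding site.

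Counts summed to between 14832214 and 17251032 per library, so that 1 count is worth 0.0574 to 0.0678 CPM, that is, counts scaled to a common library size, here with TMM factors (normalised CPM). The genes described had between 131 and 2005 counts in each library. All 8 hippocampal marker genes were counted, with a summed level of 5713 to 6249 CPM in control and 6116 to 6144 in ATO. Of 12 marker genes of the hypothalamus and suprachiasmatic nucleus, the site of the central clock, 8 were not analysed here, Avp and Nms among them, and the other 4 summed to 26.4 to 28.9 CPM over the 4 libraries. All 20 choroid plexus markers, a list chosen with earlier results of these data known, rose in ATO, where 2.87% of all genes did. Their summed level went from 149 and 219 CPM in the controls to 3388 and 4243 in ATO. Whether this epithelium contributed to any clock gene was not tested. In bulk tissue, a change in the share of a cell type and a change in RNA per cell cannot be told apart.

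In control hippocampus the 10 genes spanned a 5.14-fold range of expression per gene length. By the deposited FPKM values, which divide by length, Nr1d1 was highest at 21.5 ± 0.509 FPKM (mean ± SD, n = 2), followed by Cry2 at 19.8 ± 0.332 and Nr1d2 at 15.4 ± 0.219. Per1 at 11.9 ± 1.71 and Dbp at 11.6 ± 0.170 FPKM did not differ beyond their spread. Below them lay Per2 at 6.15 ± 0.0283, Clock at 5.91 ± 0.346, Nfil3 at 5.38 ± 1.45, Per3 at 5.095 ± 0.559 and Cry1 at 4.19 ± 0.332 FPKM, and neighbours among these lay within their spread, except Per3 and Cry1. In ATO the order changed at Per2, which at 9.97 ± 0.346 FPKM stood above Dbp at 9.21 ± 1.87, within the spread of Dbp, and at Nfil3, which at 8.52 ± 0.707 stood above Clock at 6.51 ± 0.403.

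The comparison asked by the design is ATO against control. Of the 10 clock genes, Per2 and Nfil3 rose, and 0 fell, by the quasi-likelihood test of edgeR, with p-values adjusted by Benjamini and Hochberg's method across all 15713 genes. Of all genes 3.73% passed, 2.87% upwards and 0.859% downwards. At an unadjusted p under 0.05, 5 of the 10 passed, 1 of them (Dbp) lower, against 18.1% of all genes; DESeq2 and limma-voom also called 0 of them lower. Both ATO libraries lay above both controls for 7 of the 10 (24.8% of all genes) and below them for Cry2 and Dbp (23.4% of all genes), and Nr1d1 overlapped; 48.1% of all genes did not overlap. The median log2 fold change of the 10 was 0.19, against -0.0050 for all genes. In the authors' deposited table none of the 10 carries the mark for differential expression, Per2 has a log2 fold change of 0.69 with an adjusted p of 0.000616, and Nfil3 has 0.68 with 0.0507.

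**Figure D1:**
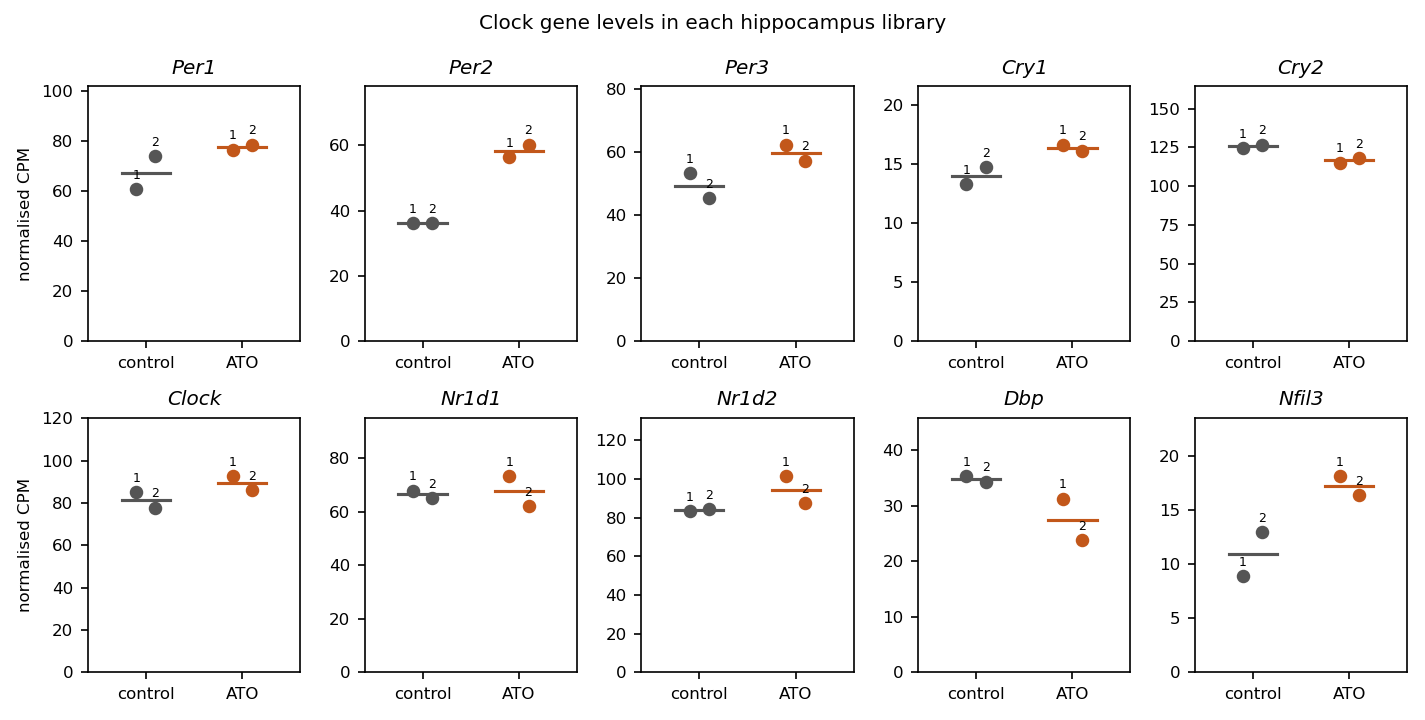
Normalised CPM of the 10 clock genes (y axes from 0) in the control and ATO libraries; each point is 1 library, numbered by replicate, and each line is the mean of 2. Both ATO libraries lie above both controls for 7 genes, Per2 and Nfil3 among them (24.8% of all genes). They lie below for Dbp and Cry2 (23.4% of all genes), and Nr1d1 overlaps.

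Per2 had the largest rise of the 10. Its product is the PER repressor that forms the core of the inhibitory complex with CRY. The gene (ENSMUSG00000055866, chromosome 1 from 91415982 to 91459324, minus strand, GRCm38) was at 36.2 and 36.2 normalised CPM in control replicates 1 and 2 and at 56.5 and 60.2 in ATO replicates 1 and 2. Both controls were nearly equal, and the groups were far apart. Per2 rose 1.61-fold, or by 0.69 ± 0.09 (SE) on the log2 scale (adjusted p = 0.000438), which ranked 66 of 15713 genes by p. The setting without a filter repeats the fit reported here, because the filter removed 0 genes. In the 8 other settings that keep all 4 libraries, that setting included, Per2 passed, with adjusted p from 8.79e-06 to 0.000625. It also passed with each library left out in turn, with log2 fold changes from 0.64 to 0.73 and adjusted p from 4.20e-06 (without ATO replicate 1) to 0.00755 (without control replicate 2). In such a fit the spread comes from the group that keeps 2 libraries, and the lone library is assumed to vary like them; this holds for every value below given without 1 library.

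The other PER genes did not pass. Per1 (ENSMUSG00000020893, chromosome 11 from 69095217 to 69109960, plus strand), whose transcript is known to respond quickly to hormones and neuronal activity, was at 60.6 and 73.8 CPM in control and 76.4 and 78.4 in ATO. Its second control library lay close to ATO, and the log2 fold change was 0.20 ± 0.09 (adjusted p = 0.274), falling to 0.07 without control replicate 1 and reaching 0.35 without control replicate 2. Per3 (ENSMUSG00000028957, chromosome 4 from 151003652 to 151044665, minus strand), a PER protein dispensable for the core loop, was at 53.2 and 45.2 CPM in control and 62.2 and 57.1 in ATO. Its log2 fold change was 0.28 ± 0.10 (adjusted p = 0.139). Without control replicate 2 this value dropped to 0.16. Per3 lies wholly within the span of Camta1 on the same strand, with 0 shared exonic bases, and Camta1 itself was at 0.08 ± 0.07. Within each library, Per2 stood at 0.597 and 0.490 times the CPM of Per1 in control and at 0.739 and 0.767 times in ATO. This ratio carries no test and follows from the CPM values given for both genes.

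The cryptochromes, which carry the repression of CLOCK and BMAL1, differed in sign. Cry1 (ENSMUSG00000020038, chromosome 10 from 85131700 to 85185064, minus strand) was at 13.3 and 14.8 CPM in control and 16.6 and 16.1 in ATO, with a log2 fold change of 0.22 ± 0.14 (adjusted p = 0.420). Cry2 (ENSMUSG00000068742, chromosome 2 from 92403646 to 92434043, minus strand) was at 125 and 127 CPM in control and 115 and 118 in ATO, with -0.11 ± 0.07 (adjusted p = 0.482). Neither passed. The groups did not overlap in either gene, as in 48.1% of all genes. A noncoding transcript on the opposite strand shares 295 exonic bases with Cry2 and was not analysed here. Clock (ENSMUSG00000029238, chromosome 5 from 76209868 to 76304792, minus strand), the activator, was at 85.1 and 77.7 CPM in control and 92.5 and 86.0 in ATO, with 0.13 ± 0.08 (adjusted p = 0.432), and its lower ATO library lay only just above its higher control. Without 1 library the value for Clock ran from 0.065 (control replicate 2 left out) and 0.079 (ATO replicate 1 left out) to 0.20 (control replicate 1 left out).

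The REV-ERB receptor genes did not pass. Nr1d1 (ENSMUSG00000020889, chromosome 11 from 98767932 to 98775333, minus strand) was at 67.9 and 65.2 CPM in control and 73.3 and 62.1 in ATO. The ATO libraries lay on both sides of the controls, the log2 fold change was 0.03 ± 0.09 (adjusted p = 0.921), and its sign turned without control replicate 2 or without ATO replicate 1. Nr1d1 shares 263 exonic bases with Thra on the opposite strand, the thyroid hormone receptor alpha gene, which was far more abundant at 1049.6 ± 28.3 CPM in control and 1001 ± 14.4 in ATO (log2 -0.07 ± 0.07). The sources used here do not say if counting used the strand, so reads of the shared stretch cannot be told apart. Nr1d2 (ENSMUSG00000021775, chromosome 14 from 18204054 to 18239127, minus strand) was at 83.3 and 84.4 CPM in control and 101 and 87.4 in ATO, with 0.17 ± 0.09 (adjusted p = 0.321), and 0.06 without ATO replicate 1.

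Of the D-box factors, the repressor rose and the activator did not pass. Nfil3 (ENSMUSG00000056749, chromosome 13 from 52967209 to 52981073, minus strand) was at 8.89 and 13.0 CPM in control and 18.1 and 16.4 in ATO. Its controls were further apart than its ATO libraries, but both lay lower. It rose 1.58-fold (log2 0.66 ± 0.17, adjusted p = 0.0481). This call sits at the threshold: over 12 other settings the adjusted p ran from 0.00768 to 0.185, and it was lost with library size only (0.0581), by DESeq2 (0.114), on leaving out control replicate 1 (0.185, log2 0.41) and on leaving out ATO replicate 1 (0.116). Leaving out control replicate 2 gave a log2 fold change of 0.95. Among the 12 settings, that without a filter repeats the fit reported here, because the filter removed 0 genes.

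Dbp (ENSMUSG00000059824, chromosome 7 from 45705088 to 45710203, plus strand), the D-box activator and a direct output of CLOCK and BMAL1, was at 35.3 and 34.4 CPM in control and 31.3 and 23.8 in ATO. The controls were close together, and the second ATO library lay well below the first. The log2 fold change was -0.34 ± 0.12 (adjusted p = 0.160). Without ATO replicate 1 it was -0.55 (adjusted p = 0.0189, in a range of 0.0189 to 0.719 over the settings tried), a fit whose spread rests on the 2 close controls alone. Without ATO replicate 2 it was -0.16. Dbp shares 539 exonic bases with Sphk2, a sphingosine kinase gene on the opposite strand, which was at 28.0 ± 0.428 CPM in control and 31.6 ± 0.108 in ATO (log2 0.18 ± 0.10). Within each library the CPM of Per2 over that of Dbp was 1.02 and 1.05 in control and 1.81 and 2.53 in ATO, and that of Nfil3 over Dbp was 0.251 and 0.378 in control and 0.580 and 0.689 in ATO. These ratios were chosen after the values were seen and carry no test.

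**Figure D2:**
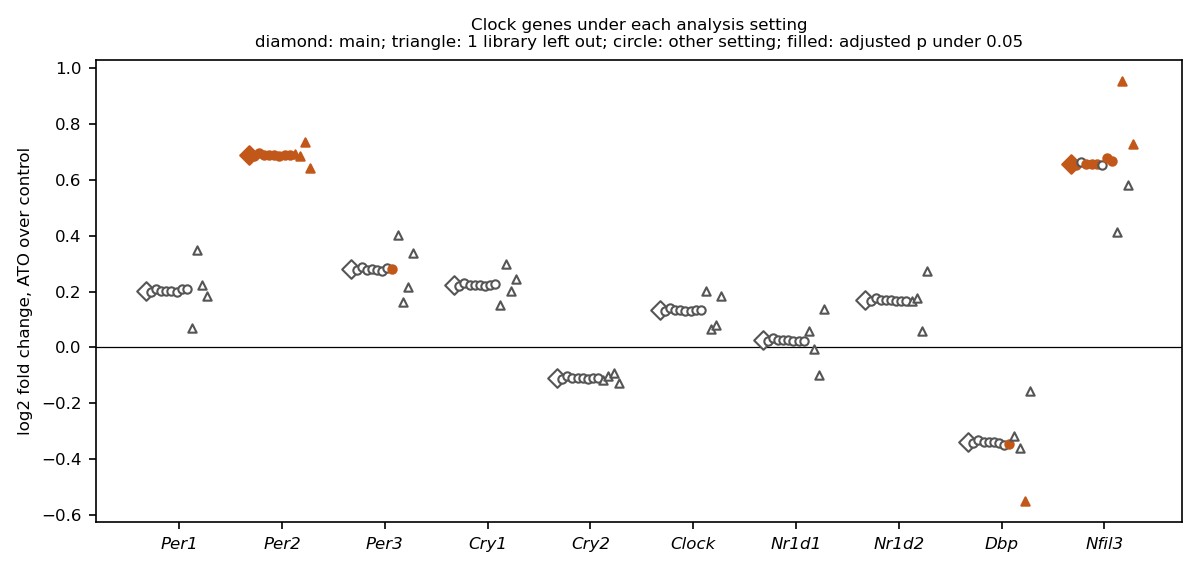
Log2 fold change (y axis) of each clock gene as reported (diamond), with 1 library left out (triangles) and under the other settings (circles); filled symbols have an adjusted p under 0.05. Per2 is filled throughout, Nfil3 in part, and Dbp and Nr1d1 move most with the ATO library left out.

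The 2 libraries of a group differed beyond counting error in 4 of the 10 clock genes, in control as in ATO. Normalised CPM in replicate 2 over replicate 1 of ATO was 0.760 for Dbp (exact binomial 95% interval of the counts 0.666 to 0.867), 0.848 for Nr1d1 (0.781 to 0.921), 0.863 for Nr1d2 (0.805 to 0.926) and 0.930 for Clock (0.865 to 0.999). Of 9 further clock factors read in the same way, 3 had intervals above 1: the activator genes Arntl at 1.35 (1.19 to 1.52) and Npas2, a relative of Clock, at 1.23 (1.06 to 1.44), and the repressor gene Bhlhe40 at 1.11 (1.03 to 1.19). The other 6 had intervals that include 1: Tef at 1.01 and Hlf at 0.990, both relatives of Dbp, Bhlhe41 at 0.958, Rora at 0.920, Rorb at 0.896 and Ciart at 0.842. Per2, at 1.07 (0.975 to 1.16), and Per1, at 1.03 (0.950 to 1.11), had intervals that include 1. These intervals cover counting error only. They exclude 1 for 4 of the 10 genes in ATO (24.5% of all genes) and for 4 of the 10 in control (29.0% of all genes). The shares over all genes include genes with few counts, whose wider intervals exclude 1 less readily.

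Between the controls the 4 genes were others in part: Per1 at 1.22 (1.11 to 1.33), Per3 at 0.850 (0.766 to 0.944), Clock at 0.913 (0.843 to 0.990) and Nfil3 at 1.46 (1.16 to 1.84). Dbp, Nr1d1, Nr1d2 and Arntl had control ratios of 0.972, 0.960, 1.01 and 1.03, each with an interval that includes 1. Of the 9 further factors 4 had control intervals below 1: Rora at 0.760, Ciart at 0.766, Hlf at 0.886 and Tef at 0.934. Between the controls the interval excluded 1, in either direction, for 29.0% of all genes. The CPM of Arntl over that of Dbp was 0.931 and 0.988 in control and 0.881 and 1.56 in ATO. Arntl had the highest and Dbp the lowest ATO ratio among the genes read, so ATO replicate 2 had to stand apart here. Like the other ratios to Dbp, this one was chosen after the values were seen and carries no test. The time of day at which each library was collected is not given in the sources used here, and its part in these differences was not tested.

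**Figure D3:**
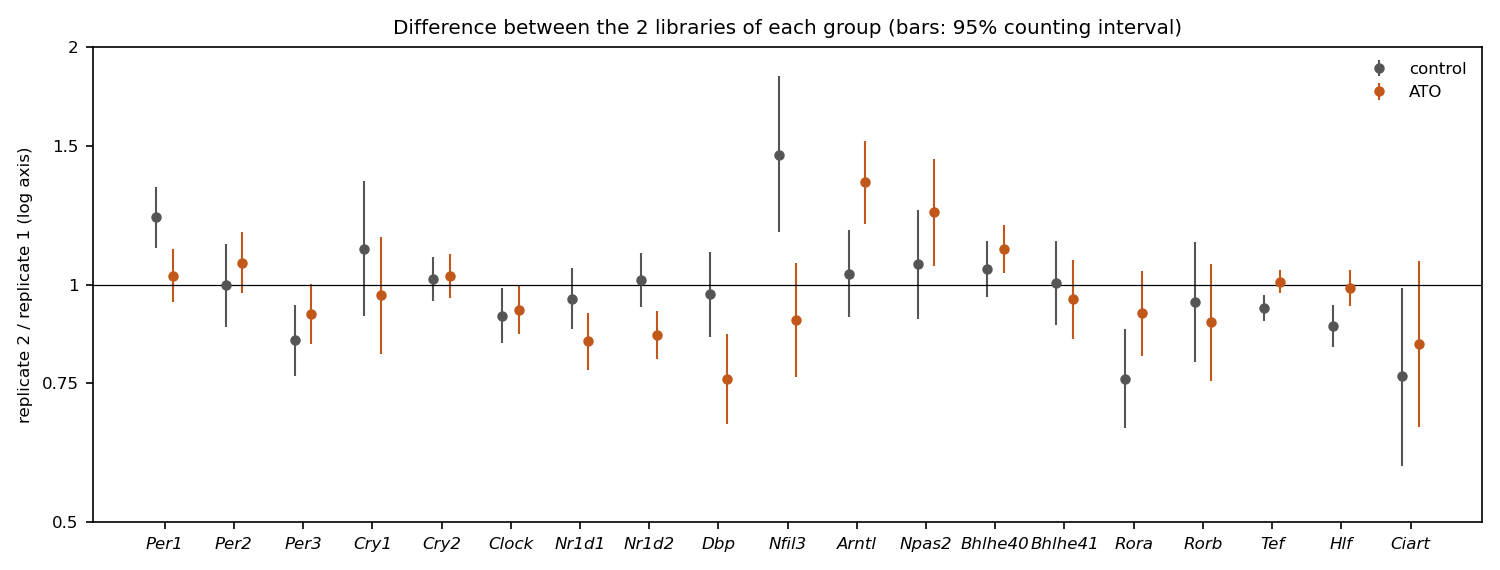
Ratio of replicate 2 to replicate 1 (log axis) of normalised CPM for the 10 clock genes and 9 further clock factors, within control and within ATO; bars are exact binomial 95% intervals of the counts. In ATO, Clock, Nr1d1, Nr1d2 and Dbp lie below 1, Arntl, Npas2 and Bhlhe40 above it, and the bars of the others cross it.

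Of 15 other clock transcription factors, 0 passed in edgeR, where 3.73% of all genes did, a near share for so few genes. DESeq2 and limma-voom also called 0 of them. In edgeR 4 had an unadjusted p under 0.05 (18.1% of all genes), and the median log2 fold change of the 15 was 0.02. Arntl was at 32.9 and 33.97 CPM in control and 27.6 and 37.1 in ATO (-0.05 ± 0.13), and Npas2 at -0.11 ± 0.13. The D-box activators Tef and Hlf, relatives of Dbp, were at 0.23 ± 0.07 (adjusted p = 0.114) and 0.23 ± 0.08 (0.135), on the other side of 0 from Dbp; Hlf was at 0.14 without control replicate 2. The E-box repressors Bhlhe40 and Bhlhe41 were at 0.22 ± 0.08 (adjusted p = 0.170) and 0.02 ± 0.10, and Ciart, another repressor of CLOCK and BMAL1, at -0.0022 ± 0.20. The retinoid orphan receptors, which compete with the REV-ERBs for AGGTCA, were at 0.24 ± 0.13 for Rora and -0.12 ± 0.13 for Rorb. Both moved with single libraries. Leaving out control replicate 2 put Rora at 0.055, and leaving out control replicate 1 put it at 0.46. Rorb was at -0.039 when ATO replicate 2 was dropped and at -0.20 when ATO replicate 1 was. Smallest in p was Sfpq, which encodes an RNA-binding partner of the PER complex, at 0.26 ± 0.07 (adjusted p = 0.0636).

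Of 22 kinases, phosphatases, ubiquitin ligases and related enzymes that act on clock proteins, 2 fell and 0 rose, where 0.859% and 2.87% of all genes did; 5 had an unadjusted p under 0.05 (against 18.1% of all genes, a near share), DESeq2 and limma-voom also called 0 higher, and the median log2 fold change was 0.01. Fbxw7, a ubiquitin ligase subunit known to target REV-ERB alpha, was at 187 and 197 CPM in control and 144 and 154 in ATO. Its groups were well apart and it fell, with a log2 fold change of -0.36 ± 0.08 (adjusted p = 0.0172). The call was lost without control replicate 2 (0.0816) and without ATO replicate 1 (0.161). Usp2, a deubiquitinase whose transcript is rhythmic in many organs, was at 78.9 and 72.3 CPM in control and 60.9 and 58.8 in ATO, and fell by 0.34 on the log2 scale (SE 0.08, adjusted p = 0.0409). That call was lost on leaving out any 1 library (adjusted p 0.0571 to 0.171), with library size only (0.05002) and in DESeq2 (0.0940). Siah2, a ligase that also acts on REV-ERB alpha, did not pass at 0.54 ± 0.15 (adjusted p = 0.0585). The ligase gene Huwe1 was at -0.21 ± 0.08 and Fbxw11, a ligase subunit for PER, at 0.19 ± 0.08. Csnk1d, the casein kinase that phosphorylates PER, was at 0.13 ± 0.07.

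**Figure D4:**
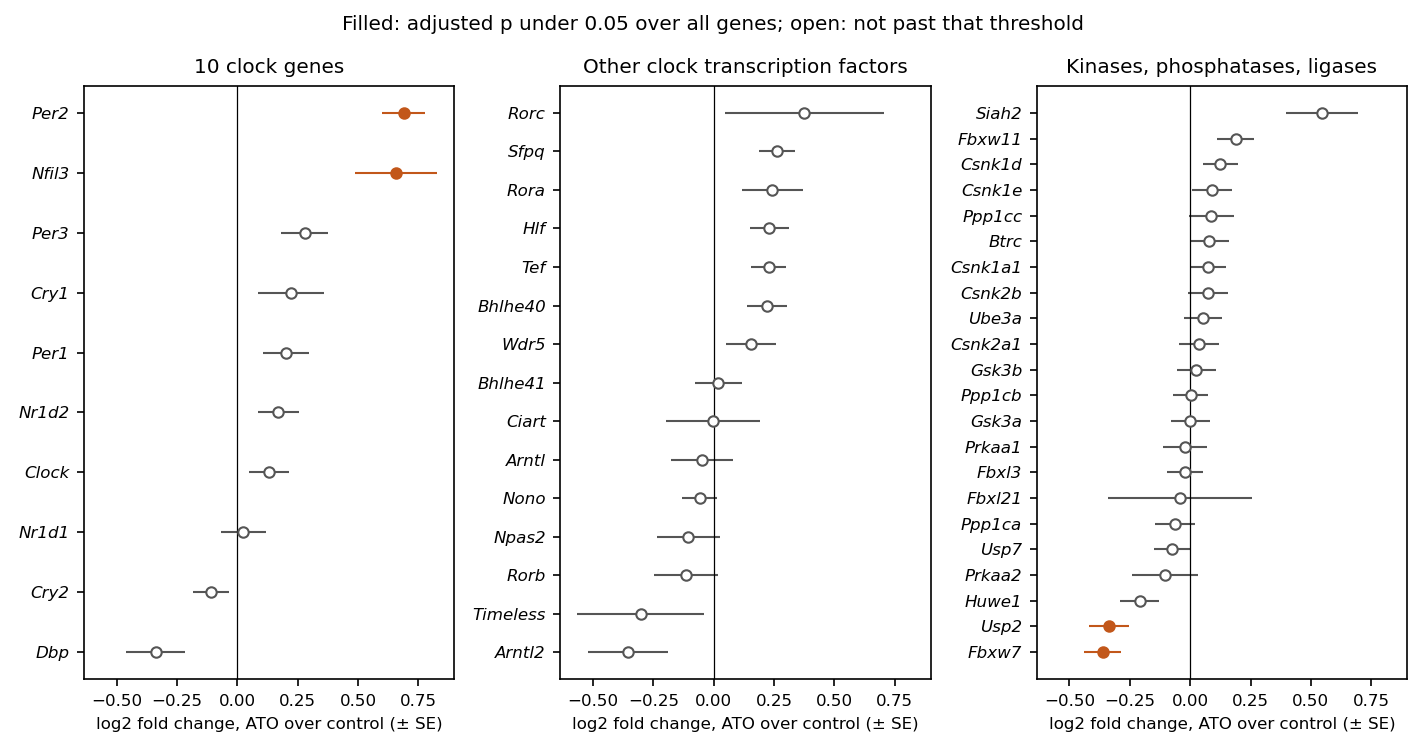
Log2 fold change of ATO over control with its SE (x axis) for the 10 clock genes, 15 other clock transcription factors and 22 enzymes acting on clock proteins; filled points have an adjusted p under 0.05 over all genes. Per2 and Nfil3 are filled on the right, and Usp2 and Fbxw7 on the left.

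Transcripts that share inputs or outputs with the clock were read in the same libraries. All gene lists used here, not only the choroid plexus markers, were chosen with earlier results of these data known. Their counts are therefore a description and not independent of these data. Of all genes 2.87% rose, 0.859% fell and 18.1% had an unadjusted p under 0.05. Of 20 glucocorticoid-induced genes 12 rose and 0 fell (unadjusted p under 0.05 for 15; DESeq2 and limma-voom called 0 lower), with a median log2 fold change of 0.58 and a summed level of 1039 to 1092 CPM in control against 1412 to 1419.6 in ATO. Among them were Tsc22d3, the leucine zipper gene GILZ, at 0.99 ± 0.08, the cell cycle inhibitor gene Cdkn1a at 1.52 ± 0.18, the kinase gene Sgk1 at 0.75 ± 0.09 and the lipid droplet gene Plin4 at 1.55 ± 0.20. Of 16 output genes rhythmic in many organs 5 rose and 1 fell (10 at an unadjusted p under 0.05), with a median of 0.24; Tsc22d3 and the transcription factor genes Klf9 (0.35 ± 0.08) and Klf15 (0.80 ± 0.11), which are on both lists, and Herpud1 of the endoplasmic reticulum (0.56 ± 0.09) were among those that rose, and Usp2 fell. In that list fewer genes rose without control replicate 2 or without ATO replicate 1, where Klf9 lost its call (log2 0.29 and 0.34). Usp2 lost its call on leaving out any 1 library (log2 -0.40 to -0.27). The count that fell was 0 with library size only and in DESeq2. It was 2 with scaling that leaves out choroid plexus and mitochondrial genes. The part of glucocorticoids in the rise of Per2 was not tested.

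Of 22 activity-induced immediate early genes 1 rose (2.87% of all genes), the postsynaptic scaffold gene Homer1 (0.60 ± 0.09, adjusted p = 0.00147), and 0 fell (0.859%); 9 had an unadjusted p under 0.05 (18.1% of all genes), and the median was 0.10. limma-voom called 1 of them lower, the activity-dependent factor gene Npas4 (adjusted p = 0.0490), and DESeq2 0. Leaving out a library moved single genes in both directions, and those named next were chosen after their values were seen. Without ATO replicate 1 the log2 fold change was 0.77 for Arc, 0.64 for Crem and 0.41 for Egr3. Arc was at 1.02 without control replicate 2. In the other direction, Fos was at -0.72 without control replicate 1 and Npas4 at -0.97 without ATO replicate 2. Homer1 ran from 0.47 to 0.72 with a library left out. Their summed level was 1076 and 1312 CPM in the controls and 1230.3 and 1505 in ATO, higher in replicate 2 of each group. Of 10 temperature-responsive genes 3 rose, the heat shock genes Dnajb1 (0.58 ± 0.09), Hspb1 (1.18 ± 0.20) and Hspa1b (0.65 ± 0.13), and 0 fell in edgeR, DESeq2 or limma-voom; 7 had an unadjusted p under 0.05, and the median was 0.23. The cold-inducible RNA-binding protein gene Cirbp, named after its values were seen, was just short at -0.40 ± 0.11 (adjusted p = 0.0544). It passed as lower with scaling that leaves out choroid plexus and mitochondrial genes (0.0498), without control replicate 2 (0.00962) and without ATO replicate 1 (0.0184). Hspb1 lost its call without control replicate 2 (adjusted p = 0.0710) and Hspa1b without control replicate 1 (0.0788). Hspa1b has a near-identical copy, Hspa1a, with which it can exchange reads.

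Marker lists of cell types and regions, chosen with earlier results known, also held genes that passed (2.87% of all genes rose and 0.859% fell). Of 11 ependymal markers 7 rose, with a summed level of 20.9 to 24.4 CPM in control and 42.3 to 57.9 in ATO. Of 10 CA1 pyramidal markers 4 fell (Dcn, Pex5l and Wfs1 among them; summed level 908 to 915 against 631 to 836 CPM), and of 12 dentate granule markers 2 rose (Trpc6 and Npnt). Wfs1 is also on the list of 8 hippocampal markers, where it was the 1 gene that passed, with 3 at an unadjusted p under 0.05 and ATO below control without overlap in 4. In each of 5 other lists 1 gene passed: Coch rose among 10 markers of CA3 and CA2, Ppp1r1b among 8 of the striatum and Six3 among the 4 of the hypothalamus, and Npy fell among 9 interneuron and Opalin among 10 oligodendrocyte markers. The call of Six3 rests on few counts, 0 and 1 in control and 23 and 26 in ATO. The hypothalamus list summed to 26.5 and 27.2 CPM in control and 28.9 and 26.4 in ATO. At an unadjusted p under 0.05 were 11 ependymal, 7 CA1, 7 dentate and 6 interneuron markers. The CA3 and CA2, striatum, hypothalamus and oligodendrocyte lists had 1 each. ATO lay below control without overlap in 8 interneuron, 7 CA1 and 6 oligodendrocyte markers (23.4% of all genes). Astrocyte, microglia and endothelial markers, 10 each, and 6 thalamic markers gave 0 calls in edgeR, with 6, 1, 3 and 1 at an unadjusted p under 0.05 (18.1% of all genes). Their part in the clock gene values was not tested.

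The genes nearest to 4 of the clock genes in pattern were named by the Euclidean distance between log2 CPM values over the 4 libraries, each gene centred on its mean, among 12085 genes with a mean of at least 5 CPM. For Per2 they were Gask1a (distance 0.054), Aff1 (0.067) and Ppp1r3g (0.084); Aff1, for example, was at 17.9 and 17.5 CPM in control and 27.3 and 27.9 in ATO. Ttc21b (0.022), Tra2a (0.028) and Vwa8 (0.029) were nearest to Per1. Lair1 (0.033) and Tox3 (0.059) were among those nearest to Dbp, both lowest in ATO replicate 2. Casp2 (0.024), Wnt7a (0.024) and Npepl1 (0.027) were nearest to Nr1d1. With 4 libraries many genes share a pattern closely, so these names are a description of these libraries only.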

How the data were processed

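The authors deposited 1 table of 15713 genes. Per the file headers it holds a count of reads and an FPKM value for each gene and library, and the authors' log2 fold change, p-value and adjusted p-value of ATO over control. Per the submitters' processing notes the tools were HISAT2 2.0.1 and HTSeq 0.6.1, beside cutadapt 1.9.1, FastQC 0.10.1, limma 3.47.15 and R 4.1.0, and the build was GRCm38; no role or setting of a tool is given in the sources used here. The ratio of count to FPKM varied between genes, as it does with length, but between 2 libraries it differed by 1 factor for all 7840 genes checked, within rounding, so FPKM served only to compare genes.

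The quasi-likelihood test of edgeR 4.0.16 (R 4.3.3) was run on the counts after filterByExpr, which removed 0 genes, with TMM factors, no covariate and Benjamini-Hochberg adjustment over 15713 genes. "Rose", "fell" and "passed" mean an adjusted p under 0.05, and SE is the size of the log2 fold change over the square root of F. The common dispersion was 0.00513. DESeq2 1.42.0, limma-voom (limma 3.58.1), other scalings and filters, a replicate block and leaving out each library were alternatives. The alternative without a filter repeats the main fit and is no separate check. The code was tested on simulated counts.

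Positions and exon overlaps come from GENCODE vM21 (GRCm38), which held 15703 of the identifiers. The clock genes and lists were chosen with earlier results of these data known. Named genes are the 10, 9 further clock factors, overlapping genes, members of the clock lists that passed with up to 4 more by smallest p, and up to 4 that passed from each other list, with cell type markers given by list and name only; a few are not reported here.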

Additional observations from a re-analysis of the deposited data

How the results depend on the processing

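The count of genes that passed was 586 (451 higher, 135 lower in ATO). It was 316 (252 and 64) in DESeq2's Wald test and 222 to 611 (180 to 443 higher, 42 to 168 lower) with 1 library left out, lowest without control replicate 2; without ATO replicate 1, 300 were higher. Of the 10 clock genes 2 passed, both higher. It was 1, and 1 higher, by DESeq2 and with library size only, and with 1 library left out it was 1 to 2, with 1 to 2 higher and 0 to 1 lower. Without control replicate 1 Nfil3 lost its call, and without ATO replicate 1 Nfil3 lost it and Dbp gained one; the cause was not tested.

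The replicate numbers carry no stated meaning, and 2 pairs cannot show one; the deviations of control and ATO libraries with the same number correlated at 0.208 over 12086 genes. With the replicate number as a block 1366 genes passed (890 higher, 476 lower), and 4 of the 10 clock genes, Per3 (adjusted p = 0.0343) and Dbp (0.0383) in addition, so that 3 were higher and 1 lower. Of other named genes Sfpq (0.0102), Tef (0.0259), Hlf (0.0276), Siah2 (0.0158) and Huwe1 (0.0422) then passed. Of the immediate early genes 5 were then higher and 1 lower, of the temperature-responsive genes 3 and 1 (Cirbp, 0.00309), and of the rhythmic output genes 6 and 2.

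Signs turned only for values near 0 among the genes named. With 1 library left out the log2 fold change ran from -0.10 to 0.14 for Nr1d1, -0.28 to 0.15 for Arntl, -0.26 to 0.039 for Npas2, -0.012 to 0.050 for Bhlhe41 and -0.19 to 0.20 for Ciart; Ciart was also at 0.0055 with library size only and 0.0072 in limma-voom. The range of levels in control was 5.14-fold by FPKM, and the order of genes was the same with CPM per annotated exonic kilobase. Both measures divide the same counts by gene length, so this compares only the lengths used and is no separate check. Both the 2 libraries a group and the depth limit precision; the lowest count among the 10 genes was 131.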
